A study of Mus musculus with 4 samples.

Results

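The germline and meiosis genes described here are 43 genes that act in germ cells, taken by name from a fixed list and found in the mouse gene annotation of the mm9 assembly. All 43 names matched 1 gene each, all on autosomes, out of 37273 annotated genes on chromosomes 1 to 19, X and Y. Of these, 22367 are protein-coding and serve as the comparison. The names, and not measured values, define the list, but it was drawn up with earlier results of these data known. For each gene, the regions enriched for H3K9me3 and for H3K36me3 were taken where they touched the gene by at least 1 bp, and their distance was measured from the annotated start of the gene in the direction of transcription.

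The regions come from chromatin immunoprecipitation and sequencing (ChIP-seq) of mouse ES cells of strain 129S1/SvImJ, grown in serum with leukaemia inhibitory factor. The WT cells were unmodified. The H3.3 G34R cells carried the glycine to arginine substitution on 1 copy of *H3f3a*, expressed from the promoter of that gene, with *H3f3b* left WT. They were made by exposing cells with a targeted conditional allele to Cre recombinase, and the labels do not say which or how many clones gave the libraries. There were 4 libraries, 1 for each mark in each cell type, and the authors joined WT and G34R cells in 1 list of regions per mark. A listed region was therefore enriched in WT, in G34R or in both, and no value per cell type, read depth or replicate spread could be given for any gene.

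H3K9me3 is the trimethylated form of lysine 9 of histone H3 and is found at silenced promoters and repeats. H3K36me3, the trimethylated form of lysine 36, is laid down behind elongating RNA polymerase and marks the bodies of transcribed genes. Many germline genes have CpG-rich promoters that are kept silent outside germ cells by DNA methylation, by H3K9 methyltransferases such as SETDB1 and by a variant Polycomb complex, PRC1.6, whose subunits E2F6 and MGA with its partner MAX bind DNA at E2F sites and E-boxes. ES cells are derived from the early embryo and keep part of this silencing while a few germline genes are transcribed in them. As a check of the cell type, all 10 of 10 listed ES cell marker genes, among them *Pou5f1*, *Sox2* and *Nanog*, held H3K36me3, and 0 of 6 listed fibroblast genes did, where 34% of all protein-coding genes held it.

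H3K9me3 was found in most of the germline genes, and the share of genes that held it was furthest above the background at their starts, although 55 of the 76 H3K9me3 regions lay beyond 1 kb. H3K36me3 was present in few of the genes. H3K9me3 was found in 29 of 43 genes (67.4%), compared with 40.2% of all protein-coding genes and 48.8% of protein-coding genes of the same length. H3K36me3 was found in 7 of 43 (16.3%), compared with 34% of all protein-coding genes (7609) and 43.4% of those of the same length. Both marks were found in 4 genes (9.30%), against 12.1% and 17.3%, a ratio of 0.537 to genes of the same length that was 0.884 with regions of at least 1 kb. The values for the same length are percentages over 20 classes of gene length, weighted to the number of germline genes in each class, since the germline genes were longer (median 37.4 kb, range 3.81 to 150.8 kb) than protein-coding genes in all (median 15.4 kb). With 1 pooled list per mark, none of these differences could be tested against replicate error, and they are given as descriptions.

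The difference was larger at the gene start. Within 1 kb of the start H3K9me3 was found in 21 of 43 genes (48.8%), compared with 18.5% of all protein-coding genes and 19.09% at the same length, a ratio of 2.56 to the latter. H3K36me3 was found within 1 kb of the start in 0 of 43 genes, where the background was 1.89% of all protein-coding genes and 1.23% at the same length. Within 2 kb it was found in 4 genes, a ratio of 1.64 to genes of the same length. With so few genes neither count shows a direction. An H3K9me3 region included the start base itself in 16 genes (37.2%), against 11.9% of protein-coding genes and 11.8% at the same length. Of the genes that held any H3K9me3, 72.4% of the germline genes held it within 1 kb of the start, compared with 46.0% of all protein-coding genes and 40.3% when weighted to the same length.

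**Figure D1:**
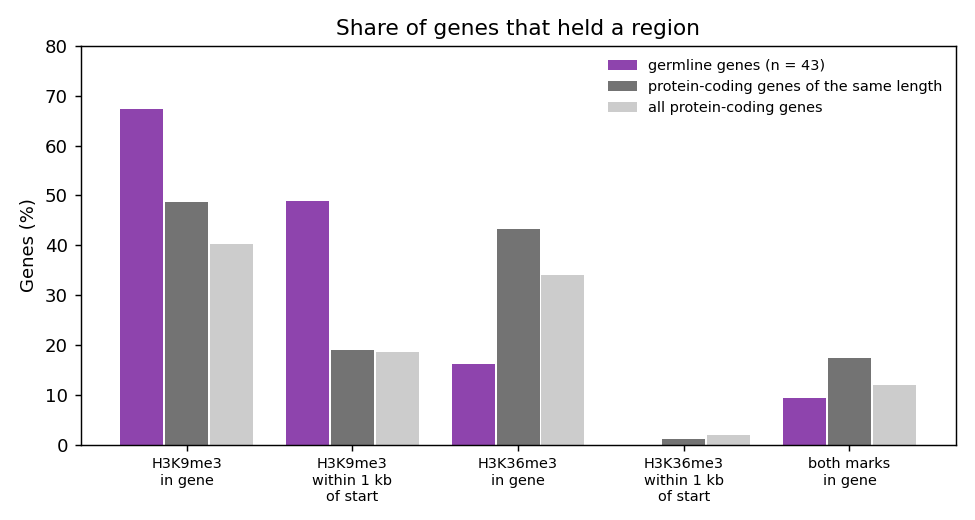
Percentage of genes with a region of each kind, for the 43 germline genes, for protein-coding genes weighted to the same lengths and for all protein-coding genes; the bars carry no error, as each mark has 1 pooled list. H3K9me3 within 1 kb of the start stood at 48.8% against 19.09% at the same length, and H3K36me3 anywhere in the gene at 16.3% against 43.4%.

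The 43 genes fell into 4 classes. H3K9me3 alone was found in 25, H3K36me3 alone in 3, both marks in 4 and neither in 11 (25.6%, near the 25.2% of protein-coding genes of the same length). Of all protein-coding genes, 28.1% held H3K9me3 alone, 22% H3K36me3 alone, 12.1% both marks and 37.9% neither. In all, 76 H3K9me3 regions of 600 to 4200 bp covered 88.28 kb, or 4.86% of the summed length of the genes, and 29 H3K36me3 regions of 600 to 6000 bp covered 36.35 kb, or 2.00%. Over the summed length of all protein-coding genes these shares were 3.38% and 5.71%. The median germline gene had 2.88% of its length in H3K9me3 and 0% in H3K36me3, and the median protein-coding gene 0% in both. Among genes that held H3K9me3, the medians were close, at 6.12% of the length in germline genes and 5.84% in protein-coding genes.

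The coverage by distance from the start showed where the H3K9me3 lay. In the first 500 bp a mean of 43.1% of bases was in an H3K9me3 region, compared with 15.2% at the same gene length, and from 500 to 1000 bp the means were 40.2% and 13.4%. The share was 24.0% against 9.44% in the next 500 bp, 17.56% against 6.495% at 2000 to 2500 bp and 6.98% against 4.92% at 3000 to 3500 bp. At 20000 to 40000 bp, over the 21 genes long enough, it was 2.44% against 3.08%. From 40000 to 80000 bp only 4 genes were long enough, and the values were 6.23% and 2.77%. In percentage points, the germline genes were thus furthest above genes of the same length in the first 1500 bp. Beyond 5500 bp they lay above them in some steps and below them in others. H3K36me3 in the germline genes reached 6.98% at 2000 to 2500 bp (6.17% at the same length) and was 4.15% at 9500 to 10000 bp, where genes of the same length had 11.4%.

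**Figure D2:**
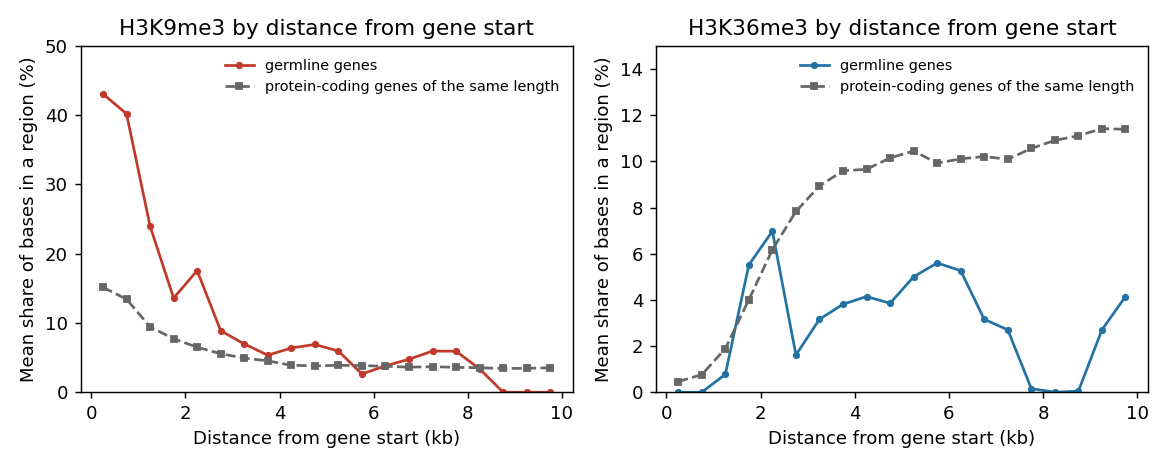
Mean share of bases inside a region in steps of 500 bp from the gene start, for germline genes (solid) and for protein-coding genes weighted to the same lengths (dashed), with H3K9me3 left and H3K36me3 right on axes of different range; only genes that span the whole step are counted. H3K9me3 began at 43.1% against 15.2%, and H3K36me3 was at 0% over the first 1000 bp.

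The piRNA pathway, which silences transposons in germ cells through PIWI proteins and their small RNAs, was the largest of the groups by role. Of its 13 genes, 10 held H3K9me3, 8 of them within 1 kb of the start (61.5%), and 0 held H3K36me3, where the shares of all protein-coding genes were 40.2%, 18.5% and 34%. This and the other groups by role were set against protein-coding genes of all lengths. Weighted to the lengths of the 43 germline genes, these shares were 48.8%, 19.09% and 43.4%. No weighting to the lengths of a single group was made. *Mael* (ENSMUSG00000040629.3, chromosome 1, 168131516 to 168168875), a factor of piRNA production and transposon silencing, held 1 region, from 168166401 to 168169000, which ran from its start to base 2474 and covered 325 bp of coding sequence. *Tdrd1* (ENSMUSG00000025081.7, chromosome 19, 56900699 to 56944502), a Tudor-domain scaffold that binds methylated PIWI proteins, had H3K9me3 from 56900601 to 56902400 touching untranslated exon sequence and 3 further regions from base 19502 onwards. *Tdrd6*, another Tudor-domain protein of the germ cell granules, had 41.8% of its length in H3K9me3, and its first region, from 43765001 to 43767400 on chromosome 17, covered 2104 bp of coding sequence.

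The other piRNA genes with marked starts held shorter stretches there. *Mov10l1*, the RNA helicase that starts primary piRNA processing, had a region to base 1061 and 3 more from base 48062 onwards. *Fkbp6*, a co-chaperone of the pathway, had 3 regions between its start and base 5294. *Tdrkh*, which tethers PIWI proteins at mitochondria, held H3K9me3 to base 1182 and nowhere else. *Tdrd5*, annotated as a lincRNA in this version of the annotation although it is known to encode a Tudor-domain protein, held a region to base 794 and another from base 1995 to 2594. *Tdrd7* differed in that its first region began at base 795, inside an intron, and was followed by 4 more up to base 7594.

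The remaining piRNA genes did not hold the mark at the start. *Tdrd9*, a Tudor-domain helicase, held the most H3K9me3 regions of any gene here, 10, the first at base 31031 and the last ending at base 90830. *Asz1*, a mitochondrial protein of the germ cell granules, had 1 intronic region at base 45861. The 3 PIWI genes themselves, *Piwil1*, *Piwil2* and *Piwil4*, held neither mark.

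**Figure D3:**
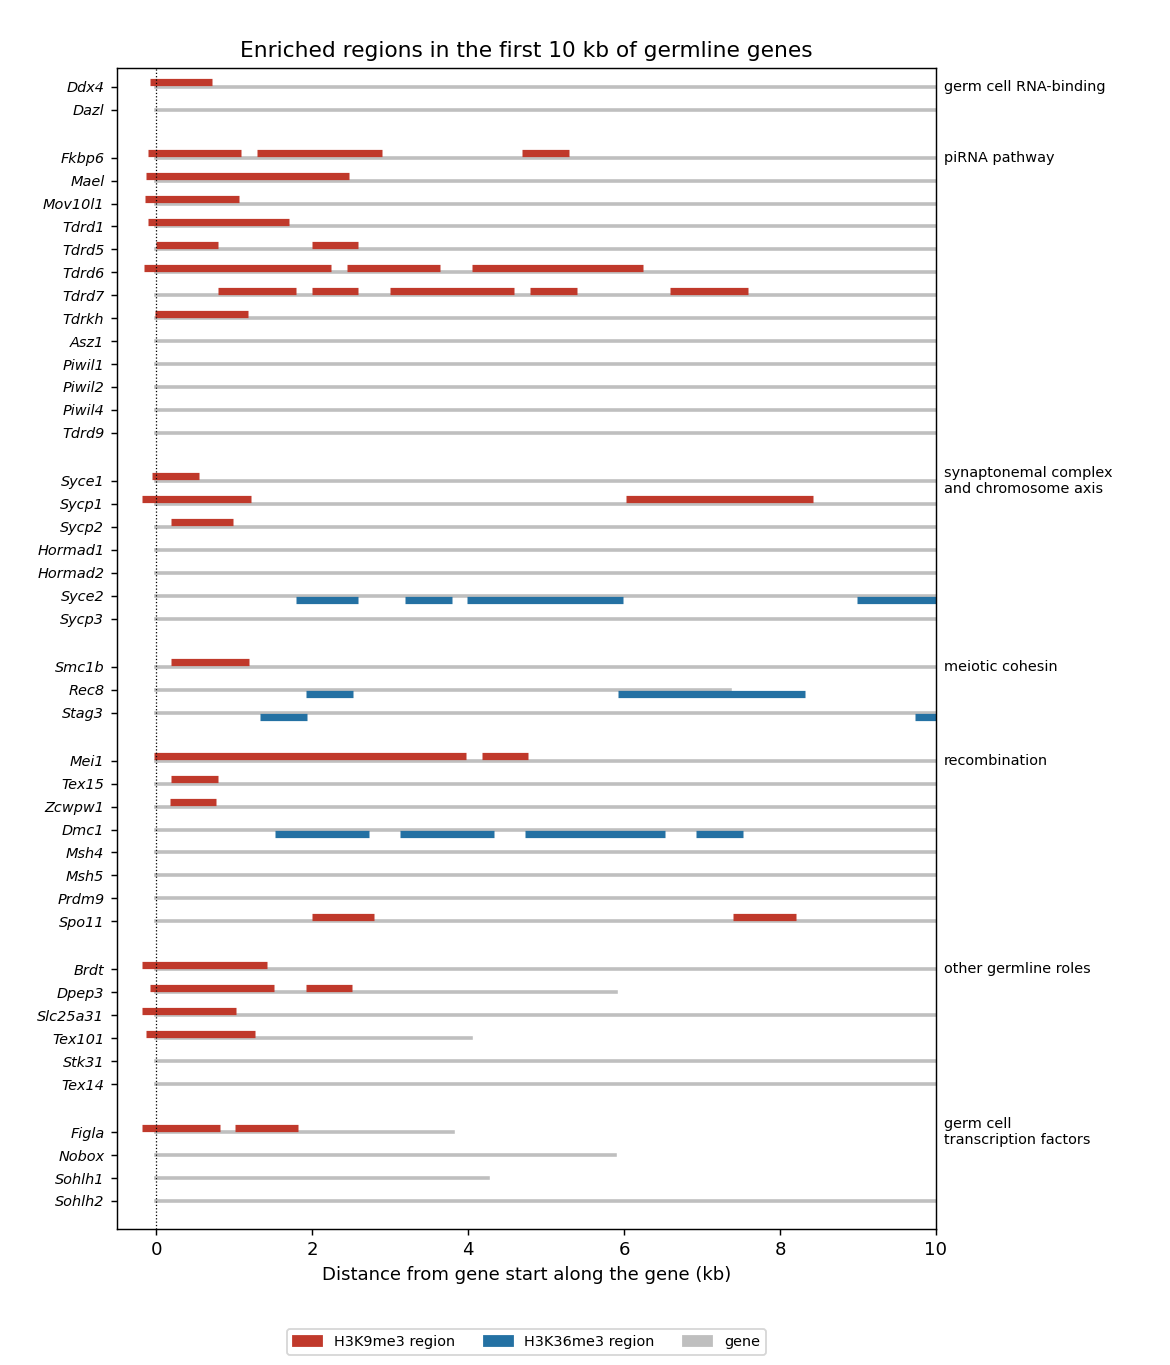
Regions in the first 10 kb of each of the 43 genes, drawn from the gene start along the direction of transcription and grouped by role, with H3K9me3 above the gene line and H3K36me3 below it. H3K9me3 sits on the start in 16 genes and H3K36me3 begins no nearer than base 1333.

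The synaptonemal complex holds paired chromosomes together in meiosis. Of its 7 genes and those of the chromosome axis, 3 held H3K9me3 (42.9%), each within 1 kb of the start (against 18.5%). The 42.9% lay between the 40.2% of all protein-coding genes and the 48.8% weighted to the lengths of the 43 germline genes. H3K36me3 was held by 1 of the 7 (14.3%, against 34%). *Sycp1* (ENSMUSG00000027855.8, chromosome 3, 102622422 to 102740023), the transverse filament protein, had H3K9me3 from 102738801 to 102740200 across its start and 4 further regions, 3 of them intronic. *Sycp2*, a lateral element protein, held a region from base 190 to 989, and *Syce1*, a central element protein, one from its start to base 552. *Syce2*, also of the central element, held H3K36me3 instead. *Sycp3*, the partner of *Sycp2* in the lateral element, *Hormad1* and *Hormad2*, which encode axis proteins that monitor synapsis, held neither mark.

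Of the 3 meiotic cohesin genes, whose products hold sister chromatids together, 1 held H3K9me3 and 2 held H3K36me3, against 40.2% and 34% of protein-coding genes. *Smc1b* had an H3K9me3 region inside an intron from base 187 to 1186, whereas *Stag3* and *Rec8* held H3K36me3 and no H3K9me3.

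Of the 8 recombination genes, 6 held H3K9me3 (against 40.2% of protein-coding genes), 3 of them within 1 kb of the start (37.5%, against 18.5%). *Mei1* (ENSMUSG00000068117.3, chromosome 15, 81900426 to 81957244), needed for double-strand break formation, had the widest region at a start, 4000 bp from 81900401 to 81904400. *Tex15*, required for recombination and later linked to silencing of transposons, had H3K9me3 from base 191 to 790. *Zcwpw1*, a reader of histone methylation at recombination sites, had an intronic region from base 175 to 774.

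In the other recombination genes the mark lay in the gene body or was absent. *Spo11*, whose protein cuts the DNA, held its first region at base 2000, so that it lay outside the 1 kb limit. *Prdm9*, the methyltransferase that sets the sites of recombination, had 1 intronic region at base 15318, and *Dmc1*, the meiotic recombinase, 4 regions from base 18529 onwards. *Msh4* and *Msh5*, which stabilise crossover intermediates, held neither mark.

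*Ddx4* (ENSMUSG00000021758.7, chromosome 13, 113388541 to 113442518), the RNA helicase known as VASA, held a single H3K9me3 region from 113441801 to 113442600 at its start. *Dazl*, an RNA-binding translation factor of germ cells, held neither mark over its 14.2 kb. Among the 4 transcription factors of germ cells, *Figla*, which acts in oocytes, had 42.5% of its 3.81 kb in H3K9me3, the highest share of any gene here, with the first region over the start. *Sohlh2* had 2 regions, at bases 21051 and 22051, and *Sohlh1* and *Nobox* held neither mark.

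All 6 genes of other germline roles held H3K9me3, 4 of them within 1 kb of the start (66.7%), against 40.2% and 18.5% of protein-coding genes. It lay over the start in *Brdt*, a testis bromodomain protein, in *Slc25a31*, a germ cell ADP/ATP carrier, in *Tex101*, a surface protein of germ cells, and in *Dpep3*, a membrane dipeptidase of the testis. *Tex101* had 31.4% and *Dpep3* 35.9% of its length in the mark, while *Brdt* had 2.55%. In *Tex14*, needed for the bridges between germ cells, and *Stk31*, a testis kinase-like protein with a Tudor domain, the mark lay only in the body, from base 71034 in the former and base 19198 in the latter.

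The 21 regions within 1 kb of a start had a median width of 1200 bp, and the 55 others 800 bp. Of the 55, 24 touched an exon and 31 lay in introns. Of the 21, 16 held the start base and thereby the first exon, and 3 of the other 5 lay in introns. All 16 regions that included the start base began in the 200 bp bin that holds it. Only bins in genes entered the lists, so the files do not show whether the mark went on upstream of these starts. Reads with more than 5 alignments had been left out upstream, and so the central 50 bases of every bin were looked up for identical copies elsewhere in the assembly. Inexact copies were not counted, and bins with few exact copies could still hold reads under the limit of 5 alignments. More than 1 copy was found for 0.694% of 144 bins in the start regions, 7.84% of 306 bins in the other H3K9me3 regions and 7.80% of 8513 bins of the germline genes outside any region. The part of this difference in the results was not tested.

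H3K36me3 lay in the bodies of 7 genes. *Syce2* (ENSMUSG00000003824.6, chromosome 8, 87396010 to 87412120) had the largest share, 59.1% of its length in 5 regions. The last of these, from 87408001 to 87414000, ran past its end into *Gcdh*, a metabolic gene on the other strand that overlaps it, while the other 4 regions lay in introns of *Syce2* where no other gene is annotated. *Stag3* (ENSMUSG00000036928.8, chromosome 5, 138721468 to 138753621) had 41.7% of its length in 11 regions from base 1333 to 29932, with no other annotated gene in any of them. In *Rec8* (chromosome 14, 56236874 to 56244232), 27.6% of the length was marked, and the second of its 2 regions, from 56242801 to 56245200, crossed into the neighbouring *Ipo4*, which encodes a nuclear import receptor. The marks at the ends of *Syce2* and *Rec8* cannot be assigned to 1 gene of each pair. *Syce2* ranked above *Stag3* only with its last region counted, which held 4120 of its 9520 marked bp.

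*Dmc1* (ENSMUSG00000022429.9, chromosome 15, 79391930 to 79435529) had 13.8% of its length in 5 H3K36me3 regions, 4 of them between bases 1529 and 7528. The shares were 5.74% in *Zcwpw1*, 1.62% in *Stk31* and 1.46% in *Tex14*. The median over the 7 genes was 13.8%, compared with 27.6% in protein-coding genes that held the mark.

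**Figure D4:**
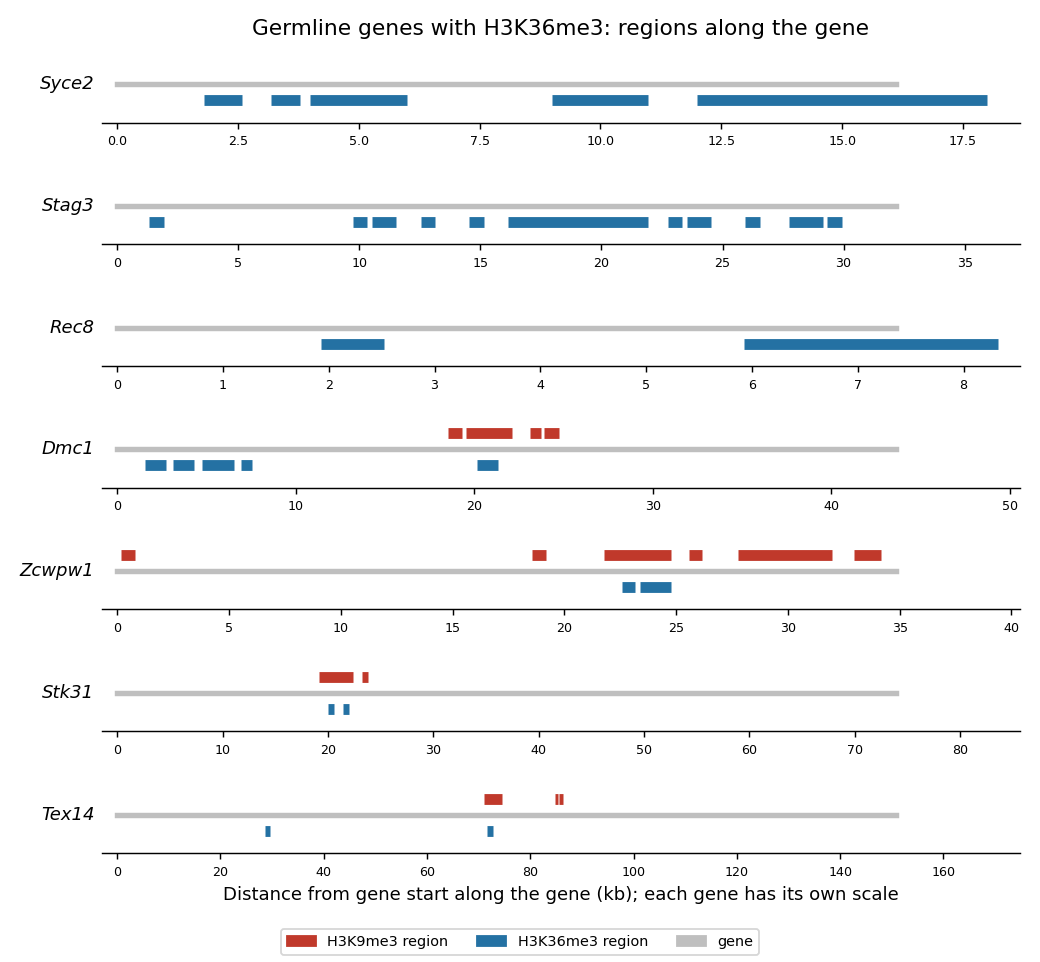
H3K9me3 (above the gene line) and H3K36me3 (below it) regions along the 7 germline genes with H3K36me3, each from its start on its own scale in kb. In *Dmc1*, *Zcwpw1*, *Stk31* and *Tex14* 6 H3K36me3 regions lie under an H3K9me3 region, and in *Syce2* and *Rec8* the last region passes the end of the gene.

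In each of the 4 genes with both marks at least 1 H3K36me3 region overlapped H3K9me3, while 4 of the 5 H3K36me3 regions of *Dmc1* and 1 of the 2 of *Tex14* did not. Among all 2698 protein-coding genes with both marks, regions of the marks overlapped inside the gene in 59.2%. At *Dmc1* an H3K36me3 region from 79414201 to 79415400 lay wholly in an H3K9me3 region from 79413401 to 79416000 that touched coding exons. At *Stk31* (chromosome 6, 49345603 to 49419500) 2 H3K36me3 regions of 600 bp lay in the H3K9me3 region from 49364801 to 49368000. At *Tex14* (chromosome 11, 87218567 to 87369325) the shared part, 87290201 to 87291400, was intronic. At *Zcwpw1* (chromosome 5, 138229026 to 138263849) the H3K9me3 region from 138250801 to 138253800 contained 2 H3K36me3 regions of 600 and 1400 bp. All 6 overlapping H3K36me3 regions were wholly inside H3K9me3, at base 19998 or further from the start, and together shared 5600 bp. Since the lists join both cell types, these overlaps do not show that 1 cell or 1 cell type carried both marks. Of the 28 bins with both marks 1 had more than 1 copy in the assembly.

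The G+C content of the 1 kb around each start was measured, since the share of protein-coding genes with H3K9me3 within 1 kb of the start was 4.44% at under 45% G+C and 43% at 65% or more. The median was 56.8% in the germline genes (range 48.7 to 67.2%) and 54.8% in protein-coding genes, and the ratio of observed to expected CpG was 0.647 against 0.549. Protein-coding genes with H3K9me3 within 1 kb had a median G+C of 61.2%, but the germline genes with and without the mark at the start were close, at 56.9% and 56.2%. When genes were weighted by both length and G+C, 19.2% held H3K9me3 within 1 kb of the start, and the ratio for the germline genes was 2.54. In the class of 55 to 60% G+C the mark was found at the start of 13 of 21 germline genes, compared with 18.6% of protein-coding genes. At 50 to 55% it was found in 1 of 10, compared with 12.4%.

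**Figure D5:**
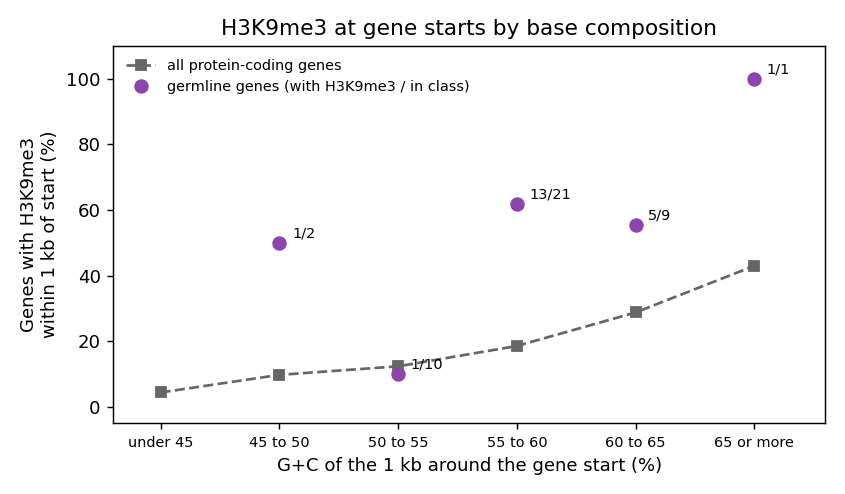
Percentage of genes with H3K9me3 within 1 kb of the start, by G+C of the 1 kb around the start, for all protein-coding genes (squares) and germline genes (circles, with the number marked and the number in the class). Germline genes lie at 13 of 21 in the class of 55 to 60% and at 1 of 10 in that of 50 to 55%, the classes of 45 to 50% and of 65% or more hold 2 genes and 1, and the class under 45% holds 0.

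The sequence of the starts was then searched for the letters bound by the factors named above, from 250 bases before to 50 bases after the start, on both strands. The E-box CACGTG, which reads the same on both strands, was found in 16 of 43 germline genes (37.2%), compared with 7.78% of protein-coding genes and 9.44% when weighted to the G+C of the germline starts. It was present in 10 of the 21 genes with H3K9me3 within 1 kb of the start and in 6 of the 22 without it, and in 9.09% of all protein-coding genes with the mark there. The E2F core TCCCGC was found in 14 genes (32.6%), nearer to the 24.4% of protein-coding genes and the 28.3% weighted for G+C, in 6 of the genes with the mark at the start (28.6%, against 35.6% of protein-coding genes with the mark there) and 8 of those without. Both were present in 6 germline genes (14.0%, against 2.52%). The letters alone do not show that a factor was bound.

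The 150 bases before the start are shown for the 4 genes with H3K9me3 over the start whose E-box lay closest to it and for the 2 whose E-box lay closest among the 6 E-box genes with no H3K9me3 within 1 kb. They are given 5′ to 3′ on the strand of the gene, from the NCBIM37 (mm9) assembly, with CACGTG and TCCCGC (or GCGGGA, its reverse complement) in capitals.
Tdrd1, H3K9me3 over the start, chr19:56900549-56900698, plus strand: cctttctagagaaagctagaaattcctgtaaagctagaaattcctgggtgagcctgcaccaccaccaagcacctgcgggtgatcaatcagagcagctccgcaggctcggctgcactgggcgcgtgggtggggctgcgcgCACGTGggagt
Ddx4, H3K9me3 over the start, chr13:113442519-113442668, minus strand: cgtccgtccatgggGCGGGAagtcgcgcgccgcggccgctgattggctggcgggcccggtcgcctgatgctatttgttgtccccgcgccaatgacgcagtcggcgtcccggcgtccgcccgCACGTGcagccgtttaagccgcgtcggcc
Brdt, H3K9me3 over the start, chr5:107760028-107760177, plus strand: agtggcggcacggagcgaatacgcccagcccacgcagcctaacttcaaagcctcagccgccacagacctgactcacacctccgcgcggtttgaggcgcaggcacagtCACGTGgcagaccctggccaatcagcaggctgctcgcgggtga
Fkbp6, H3K9me3 over the start, chr5:135825896-135826045, minus strand: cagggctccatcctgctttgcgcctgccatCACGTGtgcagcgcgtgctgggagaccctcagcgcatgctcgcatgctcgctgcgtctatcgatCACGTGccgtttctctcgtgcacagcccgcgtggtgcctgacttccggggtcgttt
Hormad1, no H3K9me3 in the gene, chr3:95363449-95363598, plus strand: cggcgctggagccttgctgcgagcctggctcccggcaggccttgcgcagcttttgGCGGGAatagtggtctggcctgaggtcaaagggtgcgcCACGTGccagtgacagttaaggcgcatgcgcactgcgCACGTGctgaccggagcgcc
Sycp3, no H3K9me3 in the gene, chr10:87922164-87922313, plus strand: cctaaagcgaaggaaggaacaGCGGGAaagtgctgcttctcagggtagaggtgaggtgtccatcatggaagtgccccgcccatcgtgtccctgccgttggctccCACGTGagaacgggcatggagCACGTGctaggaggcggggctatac

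The nearest E-box began 11 bases before the start in *Tdrd1*, 29 in *Ddx4*, 43 in *Brdt* and 56 in *Fkbp6*, which had another further upstream in these bases. *Hormad1* and *Sycp3* each had a pair of E-boxes and 1 E2F core in these bases and held no region of either mark.

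For comparison, a list of other germline genes was examined, of which 44 of 53 names matched the annotation. Of these 44, 20 held H3K9me3 somewhere in the gene, against 40.2% of protein-coding genes. H3K9me3 was found within 1 kb of the start in 11 (25.0%, against 18.5% of protein-coding genes), among them *Taf7l*, *Tex12*, *Syce3*, *Boll* and *Hsf5*, and H3K36me3 in 15 (34.1%, against a background of 34%), which included genes also active in pluripotent cells such as *Zfp42*, *Lin28a* and *Prdm14*. In the listed factors that silence germline genes H3K36me3 was found in 19 of 21 (90.5%, against 34% of protein-coding genes), *Mga*, *Max*, *L3mbtl2*, *Pcgf6* and *Setdb1* included, and H3K9me3 within 1 kb of the start in 4 (19.05%, near the background of 18.5%), which were *E2f6*, *Ring1*, *Dnmt3a* and *Dnmt3b*.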

How the data were processed

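H3K36me3 and H3K9me3 were measured by ChIP-seq in WT and in G34R ES cells, with 1 library of each kind (4 in all). None of these was an input library (chromatin without immunoprecipitation), and the methods of the study describe no input correction of the ChIP-seq bins. As the methods of the study and the submitters' processing notes state, the authors aligned reads to mm9 with Bowtie 1.0.0, counted them in 200 bp bins, scaled them, kept bins in annotated genes above a high percentile in WT or G34R cells, and joined neighbours with bedtools 2.20.1. The deposited files hold region positions alone in bp, with no signal, so depth is unknown and WT was not compared with G34R. The methods state that merged regions over 500 bp were excluded, but no listed region was under 600 bp, so narrower enrichment is not seen here and a gene without a region may still hold it. Positions were 1-based, and the last region of chromosome 13 ended at the length of that chromosome in NCBIM37, 120284312.

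Genes were taken from GENCODE vM1 on chromosomes 1 to 19, X and Y. The background of 22367 protein-coding genes was weighted over 20 classes of gene length without the germline genes. Interval, motif and copy functions were tested on simulated data (1205 comparisons, 0 mismatches) in Python 3.11.15 with numpy 2.4.6. No test across genes was run, as genes are not replicates. The genes, lists, motifs and windows were chosen with earlier results of these data known, and the copy count and the choice of the printed sequences after the lists had been read. The named genes were all 43, in 4 classes of marks, with more values for those marked at the start, with both marks or with the largest share in a mark. Not every region or share of these genes is given. The reference sequence carried no repeat masking, and the repeat share of the starts was not computed.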

Additional observations from a re-analysis of the deposited data

How the results depend on the processing

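Alternatives changed the overlap rule, region width, merging, members, start definition, start window and comparison genes. The weighting by G+C was chosen after seeing the data. Of 92 values, 81 stayed within 1.5-fold (counts) or within a 95% Wilson interval around the reported share or ratio, which covers counting error alone. This interval takes the counted units as independent, which genes in a list and neighbouring bases are not, and it measures no replicate error. A share of summed length thus fell outside it after a small change, such as 4.86% to 4.32% for H3K9me3. With regions of at least 1 kb, the ratio to genes of the same length was 1.68 for H3K9me3 in the gene and 3.42 within 1 kb of the start, the ratio for both marks was 0.884 (0.537 as reported), and 3.38% and 1.53% of the summed length was in H3K9me3 and H3K36me3. The starts of *Ddx4*, *Tdrd5*, *Sycp2*, *Syce1*, *Tex15* and *Zcwpw1* then had no H3K9me3. Merging neighbours within 2 kb, gaps included, gave 5.73% and 2.63%, and leaving out genes that overlap another protein-coding gene 4.32% and 1.57%. The ratio for H3K9me3 in the gene, 1.38 as reported, was 1.68 against all protein-coding genes, unweighted, and 1.15 (22 genes) where regions had to lie wholly inside the gene. H3K36me3 lay within 2 kb of the start in 4 genes (*Stag3*, *Syce2*, *Rec8* and *Dmc1*), a ratio of 1.64 to genes of the same length, and within 1 kb of the start of any coding transcript in 2 (*Stag3* and *Zcwpw1*). H3K9me3 within the start window was found in 20 genes at 500 bp and 22 at 2 kb. No germline gene is on a sex chromosome, so restricting to autosomes changed the comparison genes only. The cause of these changes was not tested. No paired analysis was possible because each group had 1 library and the lists join both cell types.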
